A study of Mus musculus with 35 samples.

Results

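The genes described here encode the proteasome and its activators. They were taken by name, as every gene whose symbol starts with Psma, Psmb, Psmc, Psmd or Psme followed by a number, without pseudogenes, which gave 45 of the 38924 genes in the deposited tables. The proteasome is the protease complex that degrades ubiquitin-tagged proteins. Its core is a barrel of alpha rings (Psma genes) and beta rings (Psmb genes), and a regulatory cap of ATPases (Psmc genes) and non-ATPase subunits (Psmd genes) unfolds and feeds the substrate. Psmb5, Psmb6 and Psmb7 carry the standard active sites. In lymphocytes and in cells exposed to interferon they can be replaced by Psmb8, Psmb9 and Psmb10, which form the immunoproteasome and favour the production of peptides for MHC class I. Psme1 and Psme2 form the interferon-inducible PA28 cap, Psme3 the nuclear PA28 gamma cap, and Psme4 the PA200 cap.

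RNA sequencing libraries came from CD8 T cells of C57BL/6 mice. The sort gate was CD3e+CD8+CD44hiCD62Llo, a surface pattern of effector memory T cells. Unstimulated brain cells came from young males (5 libraries, replicates 2 to 6), aged males (6 libraries, replicates 7 to 12) and aged females (5 libraries, replicates 13 to 17). Brain cells of aged males (4 libraries, replicates 19 to 22) and aged females (5 libraries, replicates 23 to 27) were also given PMA and ionomycin for 2 h, which switch on T cell signalling without the antigen receptor. Spleen cells came from aged males only, unstimulated (5 libraries, replicates 30 to 34) and stimulated in the same way (5 libraries, replicates 36 to 40). The labels give no ages in weeks and no genotype beyond the strain, and they leave unsaid whether libraries of a group came from separate animals. The p-values therefore reflect spread between libraries, which may be technical. Sample titles also end in S numbers, whose meaning the labels leave unsaid. None repeats within male unstimulated brain, within female unstimulated brain plus stimulated replicates 19 to 25, or within spleen plus replicates 26 and 27. Between these sets they do repeat. Sex, tissue and stimulation in male brain are each compared across sets, so any difference behind the sets cannot be told apart from them.

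Library totals ran from 6654543 to 24973886 counts in unstimulated brain and from 6745077 to 14709415 in spleen, but from 1156594 to 9203922 in stimulated brain, where mitochondrial genes took 38.5% to 69.7% of the counts. The 10 CD8 T cell markers summed to 5080 to 7749 TPM in unstimulated spleen and 3453 to 7300 TPM in unstimulated brain. They summed to 2860 to 6461 TPM in stimulated spleen and only 205 to 2608 TPM in stimulated brain. B cell markers summed to 117 to 465.7 TPM in spleen and to at most 91.3 TPM in brain. In brain, the microglia and macrophage markers summed to at most 508 TPM and choroid plexus, neuron and glia markers to at most 584 TPM, the latter in stimulated male brain. The part of these other cells in the results below was not tested. In bulk RNA, fewer cells of a type and less RNA per cell cannot be told apart.

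Of the catalytic genes, Psmb5 and Psmb10 fell on stimulation in spleen, while Psmb6 gave no call in any comparison that tested it. No upstream stretch was given for Psmb7, and those of Psmb8 and Psmb9 lie in annotated exons and are not printed. The stretches upstream of Psmb5, Psmb6 and Psmb10 are shown. They are from RefSeq on build GRCm38.p6, written 5′ to 3′ on the strand of the gene, and they leave out bases inside annotated exons. Capitals mark matches to TGACNNNGC, a form of the antioxidant response element that CNC factors such as the Nfe2l2 product bind.
Psmb5, minus strand, chr14:54618023-54618245: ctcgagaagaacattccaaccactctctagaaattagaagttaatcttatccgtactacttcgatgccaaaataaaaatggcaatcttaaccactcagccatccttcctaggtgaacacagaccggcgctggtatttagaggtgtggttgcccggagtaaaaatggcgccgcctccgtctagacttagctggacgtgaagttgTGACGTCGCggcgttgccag
Psmb6, plus strand, chr11:70525107-70525356: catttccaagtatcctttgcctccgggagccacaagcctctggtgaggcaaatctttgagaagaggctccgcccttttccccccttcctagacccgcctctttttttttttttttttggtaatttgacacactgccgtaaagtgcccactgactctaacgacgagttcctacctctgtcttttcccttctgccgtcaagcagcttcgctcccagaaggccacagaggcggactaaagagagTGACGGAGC
Psmb10, minus strand, chr8:105938445-105938642: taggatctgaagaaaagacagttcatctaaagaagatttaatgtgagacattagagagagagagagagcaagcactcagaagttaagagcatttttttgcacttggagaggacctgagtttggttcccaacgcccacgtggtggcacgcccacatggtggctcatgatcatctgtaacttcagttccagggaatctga
Promoter windows of 300 bases were given for 38 of the 45 genes and searched on both strands. TGACNNNGC was in 6 of the 38 (15.8%), namely Psmb5, Psmb6, Psmc6, Psmd9, Psmd12 and Psme4, against 12.5% of 27025 promoters of the same length. The interferon gamma element TTCNNNGAA was in 2 (Psmb8 and Psmd2, 5.26% against 8.47%), and 2 copies of GAAA with 2 bases between them, which resembles the interferon-stimulated response element, was in 4 (Psmb3, Psmd4, Psmd9 and Psme1, 10.5% against 3.49%). CCAAT was in 15 (39.5% against 37.9%) and TATAAA in 4 (10.5% against 14.2%). Matches of different motifs may overlap and were counted separately, and a match is a description of the letters only.

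In unstimulated spleen the 45 genes were measured evenly. The summed level of the genes was 3227 ± 106 TPM (SD, n = 5), or 0.356% ± 0.00627 of all counts, and 43 genes had at least 10 counts in all 5 libraries. The highest median was that of Psme1, the PA28 alpha gene (757 TPM, range 749 to 813), followed by Psmb1, a structural beta subunit (216 TPM). The lowest were the testis subunit gene Psma8, with 1 count in a single library, and the thymus subunit gene Psmb11 (median 0.05 TPM). Over the 41 genes with a mean of at least 5 TPM the median coefficient of variation between libraries was 0.176, against 0.242 over 7516 genes of that level.

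Brain libraries were far more uneven. The same coefficient was 0.924 in young male, 0.963 in aged male and 0.844 in aged female unstimulated brain, against 1.08, 1.01 and 0.933 over all genes of that level. Yet the summed level was close to that of spleen, with 3807 ± 1007 TPM in young males, 3683 ± 1080 TPM in aged males (n = 6) and 3921 ± 975 TPM in aged females. Single genes switched between near 0 and high levels among libraries of 1 group. Psmd5, an assembly chaperone of the cap base, ran from 0.25 to 82.4 TPM in aged male brain and from 1.42 to 521 TPM in young male brain. Psme1 was the steadiest in aged female brain, at 902 to 1077 TPM, with a coefficient of 0.0757.

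**Figure D1:**
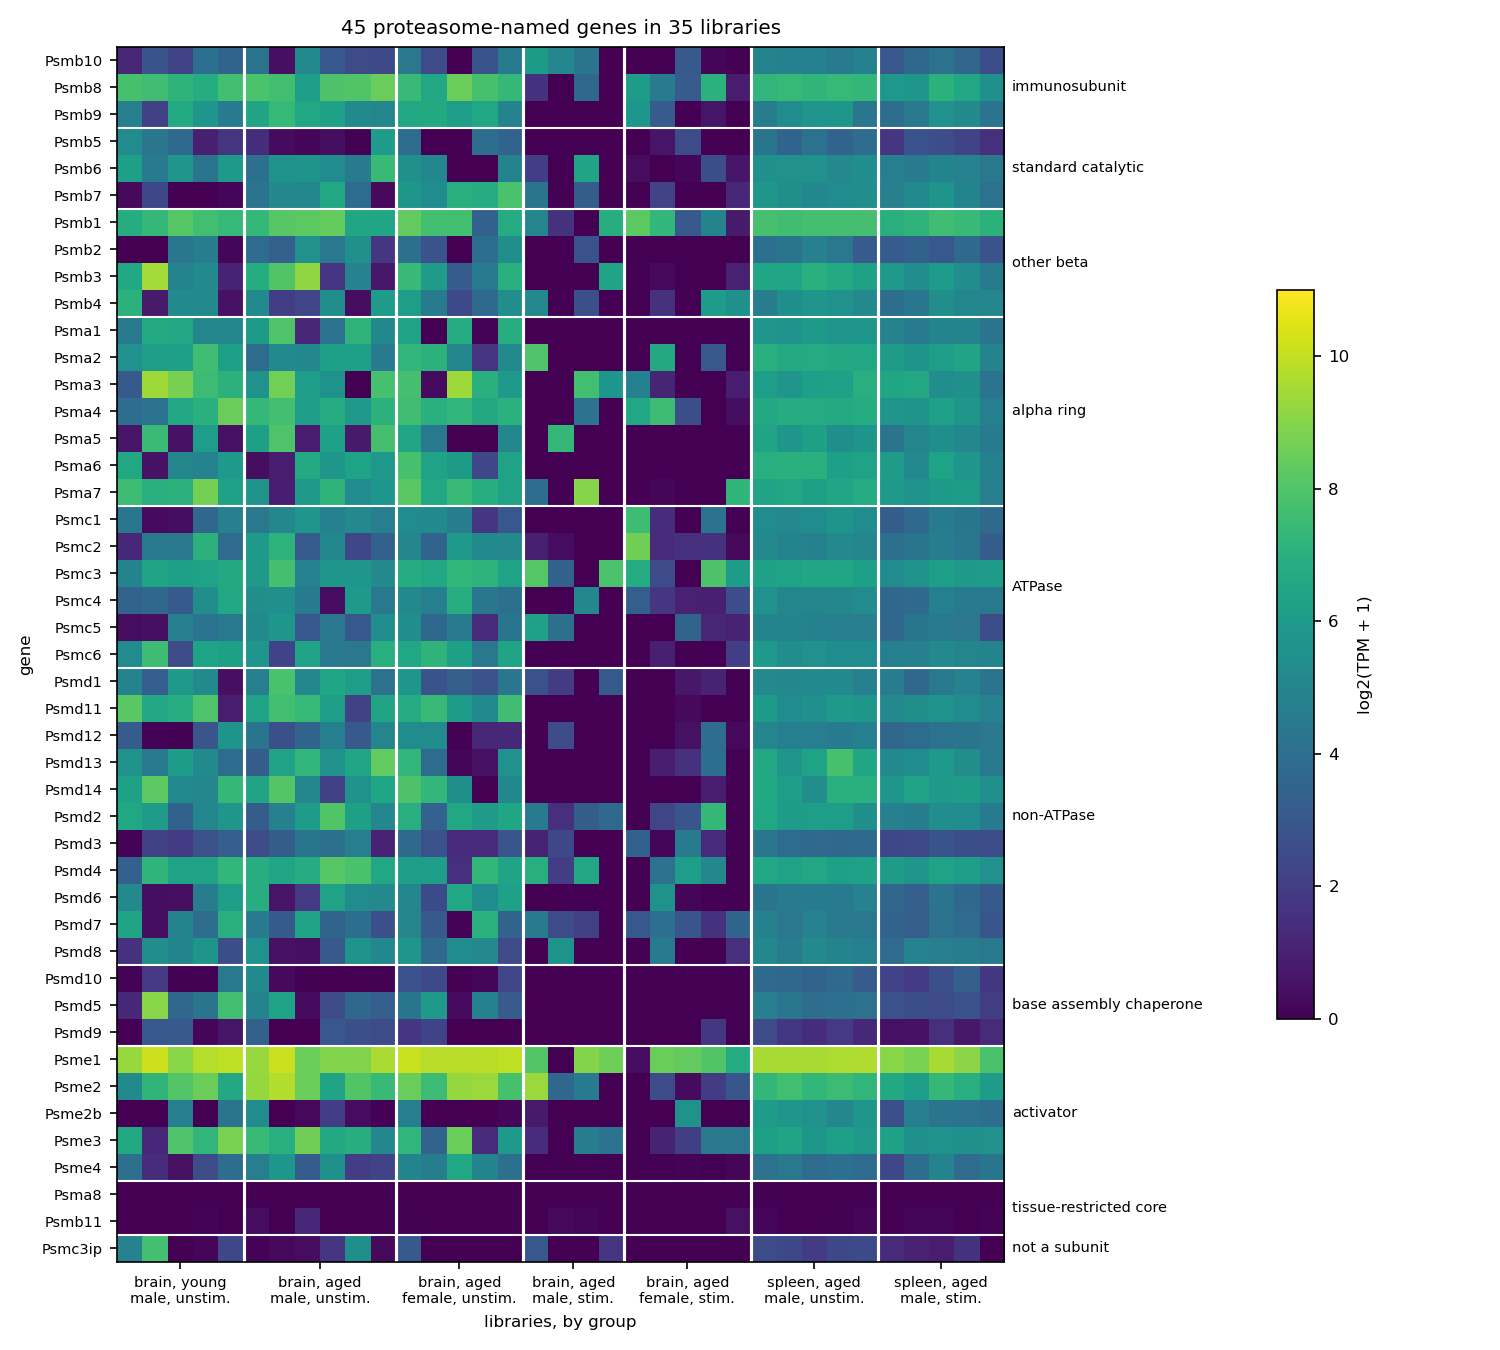
Levels of the 45 genes (rows, by role) in the 35 libraries (columns, by group), as log2(TPM + 1). Spleen columns are even, unstimulated brain columns are patchy, and stimulated brain columns hold long dark runs, with 9 to 26 of the 45 genes above 0 per library.

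Among the catalytic genes, the summed level of Psmb8, Psmb9 and Psmb10 had a higher group median than that of Psmb5, Psmb6 and Psmb7 in all unstimulated groups, mostly through Psmb8. Psmb8 (chromosome 17, 34197721 to 34201454, GRCm38) was at 147 to 166 TPM in unstimulated spleen, 69.2 to 354 TPM in aged male, 92.2 to 359 TPM in aged female and 110 to 225 TPM in young male unstimulated brain. Its standard counterpart Psmb5 (chromosome 14, 54614119 to 54618022) was at 10.2 to 18.4 TPM in unstimulated spleen. Psmb5 was below 1.7 TPM in 5 of 6 aged male brain libraries and at 67.5 TPM in replicate 12. Psmb8 thus exceeded Psmb5 in each of the 21 unstimulated libraries.

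The other pairs were closer. In unstimulated spleen Psmb9 (chromosome 17, 34181987 to 34187764) was at 19.2 to 54.9 TPM and Psmb6 (chromosome 11, 70525367 to 70527858) at 34.8 to 46.9 TPM, so their ranges overlapped. Psmb10 (chromosome 8, 105935735 to 105938444) was at 22.7 to 29.3 TPM and Psmb7 (chromosome 2, 38588036 to 38644087) at 34.6 to 55.7 TPM, with Psmb10 the lower in every library. The annotation of Psmb9 overlaps that of Tap1, the peptide transporter gene, head to head, and the use of strand in counting is not given in the sources used here, so reads there are uncertain.

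**Figure D2:**
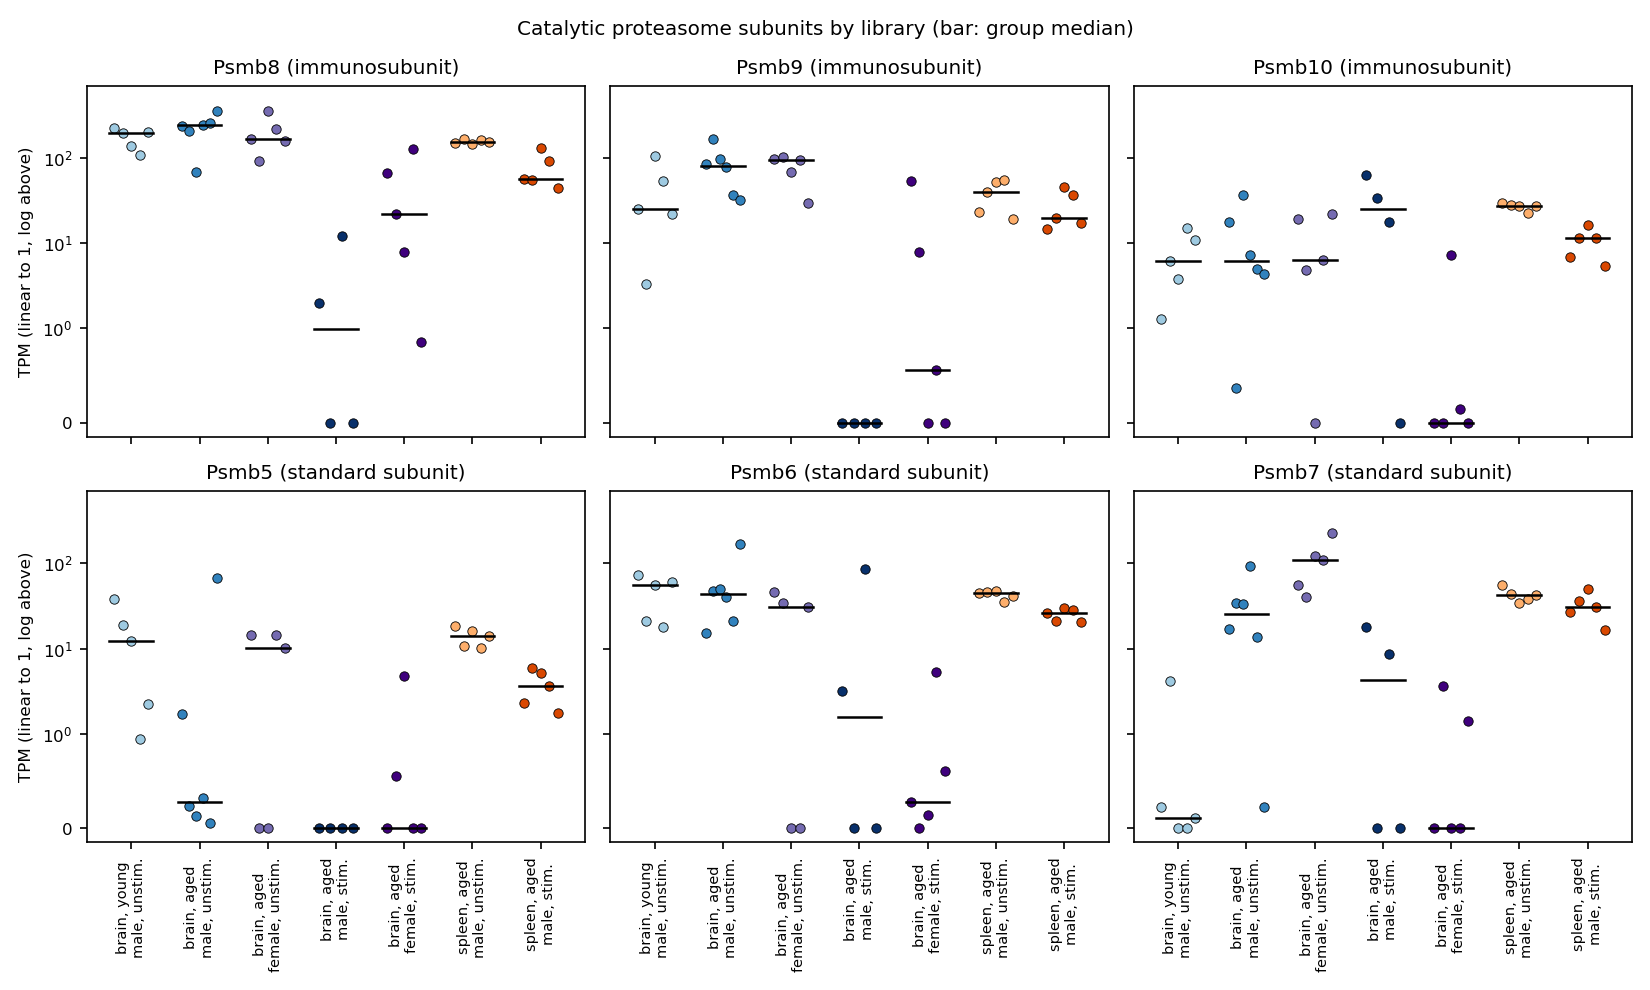
TPM of the 6 catalytic genes in each library (points) by group, with the group median as a bar, on an axis that is linear to 1 and logarithmic above. Psmb8 lies between 69.2 and 359 TPM in every unstimulated library, while Psmb5, Psmb6 and Psmb7 each reach 0 or nearly 0 in some brain libraries.

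The share of Psmb8, Psmb9 and Psmb10 in the summed TPM of the 6 genes had a mean of 69.0% ± 4.04 (SD, n = 5) without and 63.7% ± 5.49 (n = 5) with stimulation in spleen. For unstimulated brain the means were 79.9% ± 7.62 (n = 5) in young males, 77.7% ± 11.5 (n = 6) in aged males and 67.4% ± 13.5 (n = 5) in aged females. The ranges of all 5 of these groups overlapped. The share was not tested. In stimulated brain it rested on few counts, from 0 to 1103 over the 6 genes per library, and ran from 24.03% to 100% in 3 male libraries and from 30.1% to 99.8% in 5 female libraries.

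**Figure D3:**
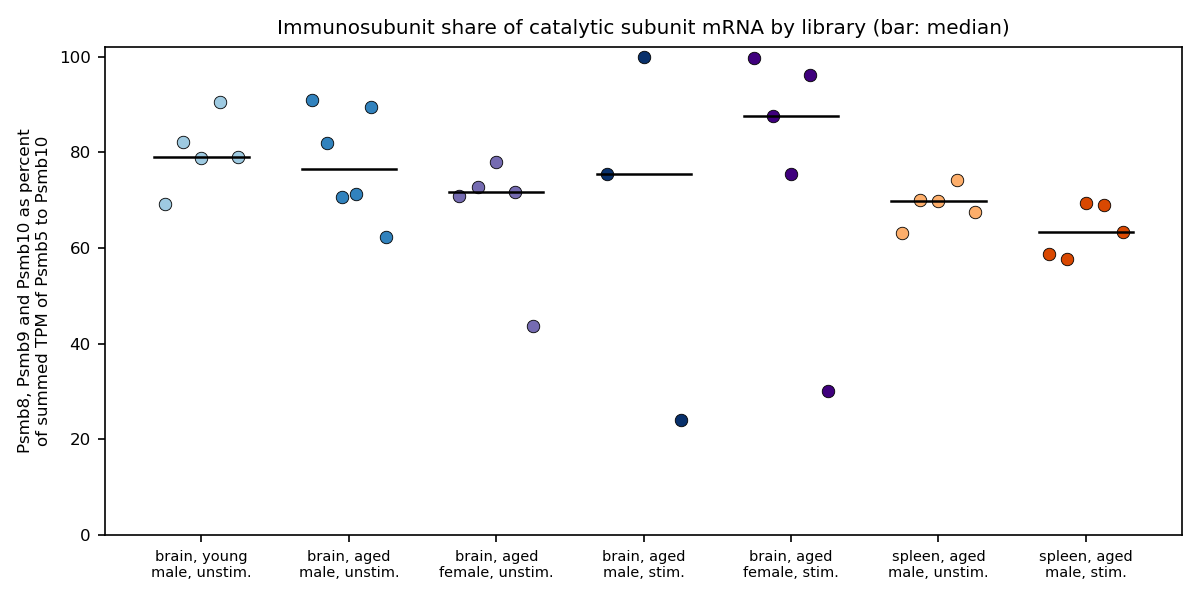
Summed TPM of Psmb8, Psmb9 and Psmb10 as a percent of the summed TPM of Psmb5 to Psmb10, 1 point per library and a bar at the group median. Spleen libraries lie between 57.8% and 74.3%, and the stimulated male brain library with no count of the 6 genes has no point.

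Stimulation in spleen was compared over 5 against 5 libraries to describe how activated cells differ from resting ones. None of 43 tested genes rose and 6 fell (edgeR quasi-likelihood test, Benjamini-Hochberg adjusted p under 0.05). Over all 11107 genes tested, 6.12% were called lower and 12.6% higher. The 6 were Psmb5, Psmb10, the alpha ring gene Psma1, the ATPase gene Psmc1, the cap subunit gene Psmd3 and the chaperone gene Psmd5. The median log2 change of the 43 genes was -0.22 and 31 were below 0, against a median of -0.07 over all genes.

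Psmb5 was at 7.02 to 11.96 CPM (counts relative to the TMM-scaled library total) in the unstimulated and 2.40 to 6.49 CPM in the stimulated libraries, which did not overlap. The log2 fold change was -1.22 ± 0.35 (SE; edgeR adjusted p = 0.0281). Psmc1 went from 54.1 ± 8.28 to 31.4 ± 8.10 CPM (log2 -0.78 ± 0.20, edgeR adjusted p = 0.0158) and Psmd3 from 27.5 ± 4.70 to 16.2 ± 2.40 CPM (log2 -0.76 ± 0.19, edgeR adjusted p = 0.0150). Psmd5 went from 25.1 ± 4.84 to 13.7 ± 3.87 CPM (log2 -0.88 ± 0.24, edgeR adjusted p = 0.0235). Psma1 went from 54.0 ± 7.46 to 37.9 ± 4.96 CPM (log2 -0.51 ± 0.16, edgeR adjusted p = 0.0373), with overlap. The first 4 genes were the ones whose groups did not overlap, all lower, against 6.91% of all genes tested.

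Of the 3 immunoproteasome genes, 1 passed the test, and differences between the 3 were not tested. Psmb10 went from 29.0 ± 2.60 to 17.6 ± 5.41 CPM (log2 -0.72 ± 0.23, edgeR adjusted p = 0.0416), with 1 stimulated library, replicate 38, inside the unstimulated range. Psmb8 was at 162 ± 13.4 CPM unstimulated and 121 ± 37.6 CPM stimulated (log2 -0.42, edgeR adjusted p = 0.141). Without stimulated replicate 38 it was called lower (log2 -0.55, edgeR adjusted p = 0.036). Psmb9 was at 30.98 ± 9.90 and 33.2 ± 8.77 CPM (log2 0.10, edgeR adjusted p = 0.838). The standard genes Psmb6 and Psmb7 were at 25.8 ± 3.04 and 35.8 ± 6.98 CPM unstimulated and 24.7 ± 2.84 and 38.9 ± 7.66 CPM stimulated, with no call.

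Within a library, the ratio of an immunosubunit to its standard counterpart does not depend on scaling. The log2 ratio of Psmb10 to Psmb7 counts was -0.29 ± 0.22 unstimulated and -1.18 ± 0.23 stimulated, a difference of -0.90. Every stimulated library was below every unstimulated library (exact two-sided permutation p = 0.00794, the smallest 5 against 5 allows), and the p adjusted over the 7 ratio tests made was 0.0556. The difference was 0.79 for Psmb8 to Psmb5 (exact permutation p = 0.0714, adjusted 0.25) and 0.18 for Psmb9 to Psmb6 (exact permutation p = 0.508, adjusted 0.593).

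Caps and other modules gave few calls. Psme1 was at 440 ± 23.1 CPM unstimulated and 456 ± 128 CPM stimulated, and Psme2, Psme3 and Psme4 had log2 changes of -0.31, 0.01 and -0.20, none past the test. 1 each of the 7 alpha ring, 6 ATPase and 11 non-ATPase genes fell, and none of the 4 structural beta genes. Psme2b, a near copy of Psme2 whose reads are uncertain, had a log2 change of -0.96 (edgeR adjusted p = 0.0510). DESeq2 called it lower (DESeq2 adjusted p = 0.0230), which made 7 calls, where DESeq2 called 8.85% of all genes lower.

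The scaling decided how many genes were called. TMM factors set the totals of stimulated libraries lower, and with unscaled totals, an alternative chosen after seeing the data, the median over all genes moved from -0.07 to -0.73 and that of the 43 genes from -0.22 to -0.86. Then 38 of 43 fell, where 39.4% of all genes were called lower. All 12 genes that were above 0 turned to below 0, among them Psme1, Psme3, Psmb7 and Psmb9. Unscaled, the summed share of all counts went from 0.356% ± 0.00627 to 0.208% ± 0.0474, while the mitochondrial share went from 11.8% ± 1.05 to 16.3% ± 2.53 and the CD8 marker median from 5320 to 3908 TPM. Leaving out 1 library gave 2 to 6 calls: 2 without unstimulated replicate 34 and 3 without unstimulated replicate 31 or 32 or stimulated replicate 36 or 40. Psmd3 and Psmc1 kept their call in each of these. Psmb10 lost it (edgeR) in 8 of the 10 and Psmb5 in 6 of the 10. A fit of all 35 libraries called none of these genes and 0.409% of all genes.

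**Figure D4:**
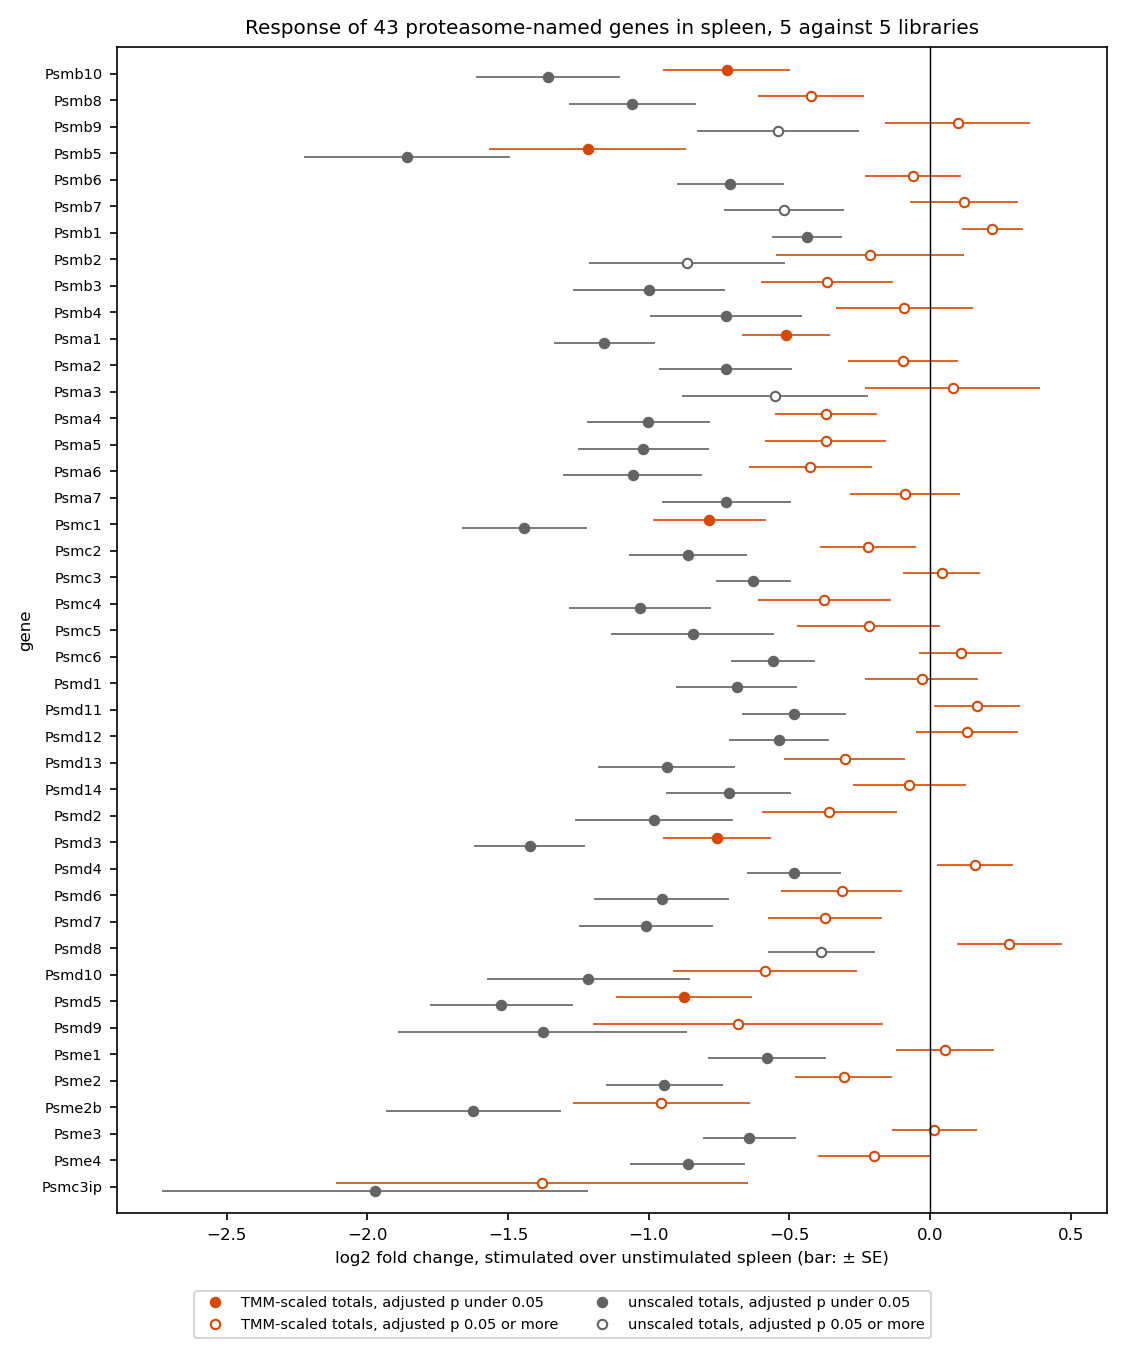
Log2 fold change ± SE of 43 genes (rows, by role) in stimulated over unstimulated spleen, with TMM-scaled totals (orange) and unscaled totals (grey), filled where the adjusted p was under 0.05. All grey points lie below 0, and 6 orange points are filled.

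Other genes of the pathway were measured in the same comparison, where 12.6% of all genes were called higher and 6.12% lower. Of 10 genes for ubiquitin and for the transcriptional control of the proteasome, 5 rose and none fell. The polyubiquitin gene Ubb rose by log2 1.37, and Nfe2l2, a transcription factor of the oxidative stress response, by log2 1.65 (edgeR adjusted p = 5.01e-06 and 0.000298). Ifng, the interferon gamma gene, rose by log2 7.38. Of 8 antigen processing genes, 1 rose and 1 fell. The MHC class I loading gene Tapbp fell by 0.66 on the log2 scale. The gene that rose was Tapbpl, at 30.1 to 35.2 CPM unstimulated and 44.2 to 65.96 CPM stimulated. None of 5 proteasome assembly genes passed the test.

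Brain and spleen cells of aged males were compared without stimulation. Psmb8 was higher in brain and was the only call among 43 genes tested, where 3.35% of 11040 genes were called higher and 7.37% in either direction. It was at 440, 500, 142, 308, 546 and 573 CPM in brain replicates 7 to 12 and at 143 to 180 CPM in spleen. Replicate 9 fell just below the spleen range and the other brain libraries were above it. The log2 difference was 1.34 ± 0.32 (418 ± 165 against 166 ± 13.8 CPM, edgeR adjusted p = 0.0136). The median over the 43 genes was 0.67, with 35 above 0, against 0.31 over all genes.

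Psmb9 showed a similar size with a wider error, with 88.6 ± 49.9 CPM for brain against 31.6 ± 10.1 CPM for spleen (log2 1.49 ± 0.51, edgeR adjusted p = 0.107). DESeq2 called Psmb8, Psmb9 (DESeq2 adjusted p = 0.0181) and the ubiquitin receptor gene Psmd4, where it called 5.53% of all genes higher. Psme1 was at 664 ± 158 and 448 ± 24.03 CPM (log2 0.57, edgeR adjusted p = 0.106). Psme2, Psme3 and Psme4 had log2 differences of 0.60 ± 0.41, 0.98 ± 0.42 and 0.99 ± 0.65, with no call. Psmb10 had a difference below 0 without a call (21.1 ± 24.8 and 29.6 ± 2.61 CPM, log2 -0.49). The standard genes Psmb5, Psmb6 and Psmb7 had log2 differences of 0.34 ± 1.52, 1.002 ± 0.68 and -0.09 ± 0.88. Without brain replicate 12, the Psmb5 difference turned to -4.17.

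Spleen libraries have sample titles without hyphens and unstimulated brain libraries titles with them, so tissue and any difference behind the title style cannot be told apart. With unscaled totals none of the 43 genes was called, where 5.93% of all genes were, and Psmb8 was at log2 0.78 (edgeR adjusted p = 0.243). A fit of all 35 libraries also called none of these genes, where it called 4.95% of all genes. Psmb8 kept its call without each single library, with 1 to 3 genes called in all: 3 without brain replicate 7, and 2 without brain replicate 8, 9, 11 or 12.

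In the same comparison, 3 of 12 interferon signalling genes, 2 of 8 antigen processing genes and 3 of 10 ubiquitin and control genes were higher in brain, where 3.35% of all genes were called higher. Ifngr1, a subunit of the interferon gamma receptor, was higher by log2 2.00 and B2m, the MHC class I light chain, by 0.93. Tap1, chosen after its values were seen because it overlaps Psmb9, was higher by log2 1.25 (edgeR adjusted p = 0.0147). Ubb was higher by log2 1.31. Psmg3, a core assembly chaperone, was lower (0.0380 ± 0.0931 CPM in brain, against 1.89 ± 0.515 CPM in spleen).

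Age and sex were compared in unstimulated brain. Between aged and young males 0 of 41 genes were called, as were 0% of all 8068 genes tested with edgeR, and 1 had an unadjusted p under 0.05. That gene was Psmb7. It had 3, 38, 0, 0 and 2 counts in young replicates 2 to 6 and 271, 177, 725, 1566, 336 and 6 counts in aged replicates 7 to 12. The groups overlapped through aged replicate 12 and young replicate 3. The log2 difference was 5.28 ± 1.93 (edgeR adjusted p = 0.917), and the DESeq2 test called it (log2 5.12, DESeq2 adjusted p = 0.0325), the 1 call it made among these genes, where it called 0.545% of all genes higher.

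The immunosubunits gave no call with age. In aged against young brain, Psmb8 averaged 340 ± 133 against 312 ± 168 CPM, Psmb9 72.2 ± 40.1 against 35.5 ± 27.2 CPM and Psmb10 17.3 ± 20.5 against 11.3 ± 7.48 CPM, each with an edgeR adjusted p of 0.994. The caps gave no call either: Psme1 averaged 542 ± 126 against 727 ± 258 CPM and Psme2 154 ± 81.7 against 127 ± 79.6 CPM. Psme3 and Psme4 had log2 differences of -0.19 ± 0.82 and 1.13 ± 0.91, and Psmb5 and Psmb6 of -0.59 ± 1.72 and 0.13 ± 0.98. Between aged females and males 0 of 40 genes were called by edgeR or DESeq2 and none had an edgeR p under 0.05, where edgeR called 0.15% and DESeq2 0.265% of 8691 genes. Female and male libraries lie in different sets of S numbers, so sex and any difference behind the sets cannot be told apart. Psmb8 was at 229 ± 63.8 CPM in females and 391 ± 154 CPM in males (log2 -0.78 ± 0.38, edgeR adjusted p = 0.999). Psmb9 was at 55.2 ± 35.8 and 82.8 ± 46.0 CPM, and Psme1 at 546 ± 57.3 and 622 ± 148 CPM. Psmb6, at 0 TPM in female replicates 15 and 16, had the log2 difference farthest from 0 among the catalytic genes (-1.91 ± 1.45). Psmb7 went the other way, at 61.6 ± 25.01 CPM in females and 31.9 ± 32.1 CPM in males. Psmb5, Psmb10, Psme2, Psme3 and Psme4 had log2 differences of -1.09 ± 2.01, -0.74 ± 1.42, 0.10 ± 0.48, -0.39 ± 0.87 and -0.51 ± 0.76. The 40 genes had a median of -0.55 with 11 above 0, against -0.28 over all genes.

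In stimulated brain libraries the 45 genes had a summed level of 1155 ± 689 TPM in males (n = 4) and 839 ± 351 TPM in females (n = 5). In stimulated spleen it was 1908 ± 501 TPM (n = 5). Of the 45 genes, 9 to 21 had any count in the 4 male libraries and 13 to 26 in the 5 female libraries, against 33 to 44 in unstimulated brain. Genes in general were also detected less: 2271 to 4464 in male and 4211 to 6769 in female stimulated libraries, against 6456 to 12706 in unstimulated brain. Of non-mitochondrial counts the 45 genes took 0.311% ± 0.133 in stimulated and 0.428% ± 0.0638 in unstimulated aged male brain. In aged female brain the values were 0.261% ± 0.109 and 0.390% ± 0.102, and in aged male spleen 0.248% ± 0.0513 and 0.404% ± 0.00293. By that share, the means of stimulated brain were not below the mean of stimulated spleen. The genes at 0 in all 4 male libraries were Psma1, Psma6, Psma8, Psmb5, Psmb9, Psmc1, Psmc6, Psmd5, Psmd6, Psmd9, Psmd10, Psmd11, Psmd13 and Psmd14. Those at 0 in all 5 female libraries were Psma1, Psma5, Psma6, Psma8, Psmb2, Psmc3ip, Psmd5 and Psmd10. Psmc3ip matches the name rule but encodes a recombination factor, not a subunit.

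In male brain 14 of 41 genes fell on stimulation and none rose, where 36.4% of 7540 genes were called lower, a share close to that of these genes. Stimulated and unstimulated male brain lie in different sets of S numbers. Stimulation and any difference behind the sets cannot be told apart. The median log2 change was -2.24 over the 41 genes and -2.62 over all genes. Psmb9 was at 65.8 ± 36.1 CPM in unstimulated libraries and 0 in all 4 stimulated ones. Its group mean was at least 40.6-fold lower when each library at 0 is set to 3 counts. Such a bound is a limit for counting error and leaves out the spread between libraries. Psmb8 had 1.98, 0, 12.1 and 0 TPM in replicates 19 to 22 and 69.2 to 354 TPM in the unstimulated libraries, with no overlap (log2 -5.28 ± 1.66, edgeR adjusted p = 0.0216). Psmb10 went the other way without a call, at 62.7, 33.5, 17.5 and 0 TPM against 0.37 to 37.0 TPM (edgeR adjusted p = 0.261). Psme1 was at 264, 0, 493.5 and 384 TPM, so it was detected in 3 of the 4 libraries. Psme4 fell (log2 -10.1 ± 2.17, edgeR adjusted p = 0.00567). It was at 0, 0, 0.457 and 0 CPM in replicates 19 to 22, so the fitted size depends on the fit and is no bound. The 5 other subunits with the smallest adjusted p were Psmd11, Psmc1, Psmd13, Psmc6 and Psmd14, cap genes at 0 in all 4 stimulated libraries. By group mean they were at least 54.7-fold, 32.1-fold, 57.1-fold, 50.7-fold and 35.5-fold lower. Single unstimulated libraries were far below these means, with Psmd11 at 6.40 CPM in replicate 11 and Psmc6 at 6.04 CPM in replicate 8. Psmd14 was at 1.16 CPM in replicate 10, below the mean 3-count level of 1.62 CPM. Psmb5 was also at 0 in all 4 and had too few counts to be tested, and Psme3 (16.99 ± 16.8 against 92.1 ± 49.4 CPM) and Psme2 (167 ± 301 against 140 ± 74.9 CPM) gave no call. Psmb6 and Psmb7 had log2 changes of -0.14 ± 1.62 and -0.64 ± 1.67, with no call. Ubiquitin and control genes also fell in 4 of 9 cases, Nfe2l2 among them, and antigen processing genes in 0 of 8.

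In female brain 4 of 32 genes fell and none rose, where 4.17% of 6305 genes were called lower. The median log2 change was -0.76 over the 32 genes and -0.41 over all genes. Psme2, the PA28 beta gene, had 0, 4.69, 0.24, 2.73 and 6.80 TPM in stimulated replicates 23 to 27 and 187 to 651 TPM unstimulated (log2 -5.42 ± 1.47, edgeR adjusted p = 0.0415). Psme4 fell by log2 6.77 and Psmd11 by log2 6.95. Stimulated libraries held at most 2.85 CPM of Psme4 and 1.55 CPM of Psmd11, so these fitted sizes depend on the fit. The alpha ring gene Psma6, at 0 in all 5 stimulated libraries, was at least 35.8-fold lower by group mean. In unstimulated replicate 16 Psma6 was at 1.04 CPM, below the mean 3-count level of 1.25 CPM. Psmb8 was at 79.6 ± 97.7 CPM stimulated and 163 ± 45.8 CPM unstimulated, with no call. Psmb7 was at 0, 5.29, 0, 0 and 1.90 CPM stimulated and 26.8 to 73.2 CPM unstimulated, without overlap. The edgeR test did not call it (log2 -4.94 ± 1.81, edgeR adjusted p = 0.157) and DESeq2 did (log2 -4.98, DESeq2 adjusted p = 0.00369). Psmb9, Psmb10, Psme1 and Psme3 had log2 changes of -0.95 ± 1.65, -0.84 ± 1.93, -0.30 ± 0.97 and -0.68 ± 1.62, with no call, and Psmb5 and Psmb6 had too few counts to be tested. These calls rested on single libraries: 0 remained without unstimulated replicate 13, 14, 16 or 17, 2 without any 1 of the stimulated replicates 23 to 27, and 7 were made without unstimulated replicate 15. DESeq2 called 8 genes, where 9.69% of all genes were called lower, and the fit of all 35 libraries 14, where 15.9% were. With unscaled totals 7 fell, where 7.72% of all genes did. Without the 2 stimulated libraries titled without hyphens 1 fell, where 0.982% of all genes did. Ifng rose by log2 3.13 in the same comparison (edgeR adjusted p = 0.0147).

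Stimulated brain and spleen of aged males were also set side by side. Here too the brain titles have hyphens and the spleen titles do not. Tissue and any difference behind the title style cannot be told apart. In brain 15 of 42 genes were lower and none higher, where 46.7% of 9135 genes were called lower. The median log2 difference was -1.20 over the 42 genes and -3.02 over all genes. Psmb9 and Psmb5, both at 0 in brain, averaged 21.9 ± 5.77 and 2.72 ± 1.11 CPM in spleen, which makes brain at least 13.5-fold and 1.68-fold lower. Psmb8 averaged 8.22 ± 12.5 CPM in brain against 80.0 ± 24.6 CPM in spleen, without overlap and without a call (edgeR adjusted p = 0.119). Psmb10 had 76.7 ± 63.8 CPM in brain against 11.6 ± 3.56 CPM in spleen (edgeR adjusted p = 0.104). DESeq2 called Psmb8 lower and Psmb10 higher (DESeq2 adjusted p = 0.00616 and 0.0120). It made 16 calls lower and 1 higher, where it called 53.5% of all genes lower and 3.31% higher. Psmb6, Psmb7, Psme2 and Psme3 had log2 differences of 1.17 ± 1.67, -0.57 ± 1.42, 1.46 ± 1.51 and -1.25 ± 1.18, with no edgeR call. The 5 other genes with the smallest adjusted p were Psmd6, Psmc1, Psmd5, Psma1 and Psmd13, all at 0 in the 4 brain libraries. By group mean they were at least 8.07-fold, 12.8-fold, 5.58-fold, 15.4-fold and 19.1-fold lower in brain. Psme4 was lower in brain (0.118 ± 0.235 against 50.9 ± 15.8 CPM, edgeR adjusted p = 0.000534), while Psme1 averaged 313 ± 270 against 302 ± 85.4 CPM.

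The difference between the stimulation responses of brain and spleen in aged males was tested directly. It was negative for 16 of 43 genes and positive for none, where 35.7% of 12117 genes were called negative. The brain groups and the spleen groups lie in different sets of S numbers, as do the brain groups between themselves. The part of any difference behind the sets was not tested. The median difference was -2.62 over the 43 genes and -4.04 over all genes, and 37 of the 43 were below 0. Psmb8 differed by -4.97 ± 1.29 on the log2 scale (edgeR adjusted p = 0.00487). Psmb9 and Psmb5 were also called (edgeR adjusted p = 4.76e-06 and 0.0418), and since both were at 0 in all stimulated brain libraries, their fitted sizes depend on the fit and are no bound. The Psmb5 call was lost without brain replicate 12 (edgeR adjusted p = 0.132). Psmb10 had a positive difference of 2.85 ± 1.41 that did not pass the edgeR test (adjusted p = 0.112) and passed the DESeq2 test (adjusted p = 0.0173), which called 3.68% of all genes positive. Psme4 was called (log2 -10.2 ± 1.52, edgeR adjusted p = 3.06e-05). Its fitted size also depends on the fit, with at most 0.457 CPM in a stimulated male brain library. Psmb6, Psmb7, Psme1, Psme2 and Psme3 were not called (edgeR adjusted p from 0.0773 to 0.966). The 5 other genes with the smallest adjusted p were Psmd11, Psmc1, Psmd13, Psmc6 and Psmd14, all at 0 in stimulated male brain. By role, the 16 genes were 2 of 3 immunosubunits, 1 of 3 standard catalytic genes and 2 of 7 alpha ring genes. They also held 3 of 6 ATPase, 4 of 11 non-ATPase and 1 of 5 activator genes, and the 3 base assembly chaperones. Of these chaperones, Psmd10 (edgeR adjusted p = 0.0451) was at 53.5 CPM in unstimulated brain replicate 7. It was at 0.04 to 0.30 CPM in the other unstimulated aged male brain libraries. None of the 4 structural beta genes was called. The mitochondrial share of 38.5% to 67.5% and the CD8 marker sum of 205 to 1050 TPM in stimulated male brain moved with these results, and their part in them was not tested.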

How the data were processed

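RNA was measured in 35 libraries of 7 groups named by the sample titles. Bowtie2 2.2.0, RSEM 1.2.12 and mm10 are named in the submitters' processing notes. The sources used here do not state strand or annotation release. The authors deposited whole-number counts for the series, which were tested, and, per the file headers, RSEM expected counts (within 0.5 of the counts) and TPM values, which are per length and were used for levels only. RSEM splits reads between near copies, so Psme2 and Psme2b, and subunits with pseudogenes, are uncertain. Positions are from GENCODE M21.

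Counts were filtered (filterByExpr, minimum count 10), scaled by TMM within each comparison and tested with edgeR 4.0.16 in R 4.3.3 (robust quasi-likelihood, two-sided), only the compared groups in a fit, with Benjamini-Hochberg adjustment over all genes tested and a threshold of 0.05. The text names Psmb5 to Psmb10 and Psme1 to Psme4 in main comparisons, up to 5 other called members per direction with the smallest adjusted p, members at 0 in whole groups, the 2 highest and 2 lowest in unstimulated spleen, and up to 4 called pathway genes per direction. Other genes given as examples were chosen after their values were seen. Members and lists were chosen with earlier results of these data known. Ratios used counts plus 0.5 where both genes had at least 10. On simulated counts, edgeR recovered 92.3% of genes changed by log2 3 and 30.5% of those changed by log2 1 in spleen stimulation (10701 genes). At log2 3 it recovered 20% for unstimulated tissue (10047 genes), 16.8% for age (7766 genes) and 9.5% for sex (8111 genes). At that size it recovered 0% for stimulated tissue (8476 genes) and for stimulation in female (5513 genes) and male brain (7286 genes). Each simulated gene had the same mean and spread in both groups before a change was put in. In the data, edgeR called 2875 of 7540 genes for male brain stimulation. The simulated rates are therefore not the sensitivity of the tests in these data. Alternatives were DESeq2 1.42.0 size factors and test, no filter, no mitochondrial genes, a fit of all libraries, each library left out, title style and unscaled totals. Python 3.11.15 made tables and figures. Some pathway and marker genes are not reported here.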

Additional observations from a re-analysis of the deposited data

Results flagged for a closer look

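Single libraries stood apart in the catalytic genes of unstimulated brain, by a gap test that flagged 5 of 36 groups. Its nominal rate of about 1 in 20 holds for normally distributed values. Brain TPM values were uneven, with many near 0, so the number of flags cannot be set against that rate. In aged male replicate 12, Psmb5 was at 67.5 TPM (others 0.06 to 1.69) and Psmb6 at 170 TPM (others 15.4 to 50.0). Psmb7 was at 93.3 TPM in aged male replicate 10 (others 0.23 to 33.9) and at 4.17 TPM in young male replicate 3 (others 0 to 0.22). The immunosubunit share was 43.8% in aged female replicate 17 (others 70.9% to 78.0%). From counts in place of TPM it was 67.8% (others 76.2% to 85.6%).

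The response to stimulation differed between brain and spleen of aged males, by the test of the difference itself, for 3 catalytic genes, where 35.7% of all genes were called negative and the median over all genes was -4.04 on the log2 scale. The log2 difference was -4.97 for Psmb8 (edgeR adjusted p = 0.00487), and the fitted values were -13.01 for Psmb9 (edgeR adjusted p = 4.76e-06) and -8.82 for Psmb5 (edgeR adjusted p = 0.0418). Psmb9 and Psmb5 had 0 counts in all 4 stimulated brain libraries, so these fitted values depend on the fit and are no bound. The Psmb5 call was lost in edgeR without unstimulated brain replicate 12. That library was at 53.7 CPM, against 0.04 to 1.38 CPM in the other unstimulated aged male brain libraries.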

How the results depend on the processing

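No paired analysis was possible because the compared groups share no replicate numbers. Among values for single genes, 1204 kept direction and side of the threshold, 110 lost the call, 8 gained one, 31 moved and 31 changed sign. The cause of the changes was not tested. In spleen stimulation, 6 calls became 0 with a fit of all 35 libraries and 38 with unscaled totals, where Psmb9 turned to -0.54, Psmb7 to -0.52, Psme1 to -0.58 and Psme3 to -0.64 on the log2 scale (Psme3 -0.0239 without a filter). For tissue, 1 call became 3 with DESeq2 and 0 with the fit of all libraries or unscaled totals; Psmb5 turned to -0.19 with unscaled totals and Psmb7 to 0.0873 in the fit of all libraries. For age, DESeq2 gave 1 call in place of 0. In female brain, 4 calls became 8 with DESeq2, 14 with the fit of all libraries, 7 with unscaled totals and 1 with hyphenated titles only. For sex, Psme1 turned to 0.15 with unscaled totals and Psme2 to -0.0658 in the fit of all libraries. At a minimum of 30 counts the Psmb10 to Psmb7 difference in spleen kept the same libraries and stayed at -0.90 (exact permutation p = 0.00794). Its adjusted p became 0.0476 only because fewer ratio tests were made, so this setting adds no strength to the difference. The immunosubunit share moved to 90.9% in aged male brain with only the 1 library that had 10 counts of each gene, and from counts to 75.7% in unstimulated and 71.1% in stimulated spleen, against 87.2% in young male, 83.8% in aged male and 78.7% in aged female unstimulated brain.

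Leaving out each library gave 2 to 6 calls in spleen, 1 to 3 for tissue, 0 to 7 in female brain, 11 to 15 in male brain, 14 to 21 for stimulated tissue, 14 to 19 for the difference of responses and 0 for age and sex. Signs that changed, with the range of log2 values: for spleen stimulation, Psmb9 -0.0537 to 0.24, Psmb6 -0.14 to 0.0039, Psme1 -0.0388 to 0.19, Psme3 -0.0792 to 0.0765; for tissue, Psmb5 -4.17 to 0.60, Psmb7 -0.70 to 0.17; for age, Psmb8 -0.13 to 0.35, Psmb10 -0.24 to 0.94, Psmb5 -5.10 to 0.0604, Psmb6 -0.63 to 0.36, Psme3 -0.53 to 0.30; for sex, Psmb10 -1.26 to 0.0777, Psme2 -0.0869 to 0.33, Psme4 -0.80 to 0.31. In simulated counts, the share of changed genes recovered was far lower in the brain comparisons than in spleen. Those counts had the same mean and spread for both groups of a gene, so the shares are not the sensitivity of these tests. A missing call in brain is no sign of equal levels.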
